A study of Mus musculus and Homo sapiens with 24 samples.

Results

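The genes of the muscle cell's intermediate filaments and of the nuclear lamina were followed through the differentiation of a mouse and a human myoblast line: DES, VIM, NES, SYNM, SYNC, NEFM, NEFL, LMNA, LMNB1 and LMNB2. They were taken by symbol, ignoring case, and each of the 10 was present in both count tables, among 56748 gene rows for mouse and 58735 for human. C2C12 is an established mouse skeletal myoblast line and was sampled at days 0, 1 and 6. LHCN-M2 is a human skeletal myoblast line, immortalised with telomerase and the cell cycle kinase CDK4, and was sampled at days 0, 1 and 12. Each of the 6 groups held 4 libraries of polyadenylated RNA, 24 in all, every sample has the genotype label control, and the labels name no medium or agent. Nothing in the labels tells whether the 4 replicates of a group came from separate cultures. The p-values therefore reflect library-to-library spread alone, possibly technical. Each species is represented by a single line, and the last days differ between them. Mouse genes are written Des and human genes DES, and capitals are used where both are meant.

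Intermediate filaments are rope-like polymers that give cells mechanical strength. In myoblasts vimentin is the main subunit of the cytoplasmic network. Desmin takes its place in muscle fibres, where it links the Z-discs of neighbouring myofibrils to each other, to the membrane and to the nucleus, with nestin, synemin and syncoilin as partners that join filaments rather than build them alone. Lamins are the nuclear members of the family and form the meshwork under the inner nuclear membrane, A-type lamins from LMNA and B-type lamins from LMNB1 and LMNB2.

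Depth was 32795699 to 43827517 counted reads per C2C12 library and 33030258 to 48546621 per LHCN-M2 library. Levels are CPM, a gene's counts after scaling all libraries of a line to a common total, and levels of different genes are compared per length, as CPM per kilobase of the deposited gene length (RPKM). All 9 skeletal muscle markers rose in C2C12 at days 1 and 6, among them Myog, a regulator of terminal differentiation, from 3.75 ± 0.281 to 142.9 ± 3.99 CPM at day 6. In LHCN-M2 8 of 9 rose and MYF5, a regulator of undifferentiated myoblasts, fell at both days. The shares of all genes tested that rose were 25.9% and 33.1% at days 1 and 6 of C2C12. They were 23.4% and 27.1% at days 1 and 12 of LHCN-M2. The 9 muscle markers summed to between 46.7 and 49.5 CPM at day 0 and between 1889 and 2003 at day 6 of C2C12, and to between 474 and 581 CPM at day 0 and between 3696 and 4135 at day 12 of LHCN-M2. In a bulk sample a change in the share of cells of a type and a change in RNA per cell cannot be told apart.

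A single library, replicate 2 of LHCN-M2 day 0, stood apart. Its root mean square deviation from its group was 0.375 on the log2 CPM scale, against 0.177 to 0.235 for the other 23 libraries. It carried 439 CPM of DES, 4292 of VIM and 2474 of LMNA, all above the other day 0 libraries, and 16.0 CPM of SYNC, below them. Folds of DES, VIM, LMNA and SYNC against day 0 of LHCN-M2, which it moved most, are given with and without it, as are calls that change without it.

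Against day 0, most of the 10 members rose in C2C12. In LHCN-M2 some members rose and more fell, with all 3 lamin genes among those that fell by day 12. At an adjusted p under 0.05, day 1 against day 0 of C2C12 gave 8 of 10 members called (50.3% of all 17065 genes tested), 7 higher (25.9%) and 1 lower (24.4%). Day 6 against day 0 gave 10 of 10 (65.6%), 8 higher (33.1%) and 2 lower (32.5%). Day 6 against day 1 gave 10 of 10 (61.4%), 7 higher (32.8%) and 3 lower (28.6%). With calls this common over the whole table, the number of members called is no result in itself. The members' sizes of change were above the table's: the median absolute log2 fold change at day 6 against day 0 was 1.87 for the 10 members and 0.54 for all genes tested. The members were chosen with earlier results of these data known, so such medians, here and below, describe them and are no test.

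In LHCN-M2, day 1 against day 0 gave 7 of 10 called (46.9% of 18214 genes tested), 2 higher (23.4%) and 5 lower (23.5%). Day 12 against day 0 gave 9 of 10 (54.6%), 3 higher (27.1%) and 6 lower (27.5%), and day 12 against day 1 gave 7 of 10 (39.8%), 3 higher (20.9%) and 4 lower (18.8%). The median absolute log2 fold change at day 12 against day 0 was 1.62 for the members and 0.56 for all genes tested. The CPM of the 4 libraries of each day did not overlap in C2C12 for 8 members at day 1 against day 0 (45.7% of genes tested), 10 at day 6 against day 0 (59%) and 9 at day 6 against day 1 (56.7%). In LHCN-M2 the corresponding numbers were 6 (43.6%), 8 (48.6%) and 7 (45.8%).

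**Figure D1:**
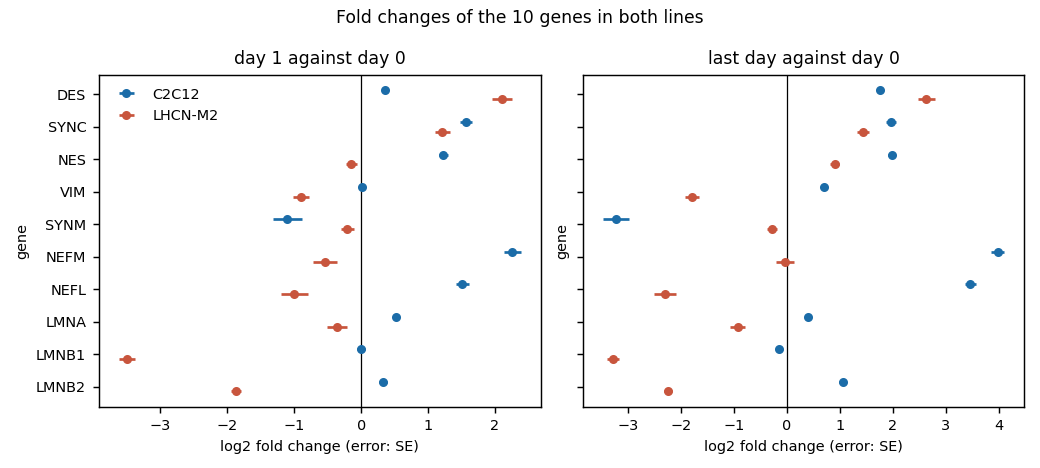
Log2 fold changes of the 10 genes at day 1 (left) and at the last day (right, day 6 in C2C12 and day 12 in LHCN-M2), each against day 0 of the same line. Points are fitted fold changes, bars their standard errors. DES and SYNC lie right of 0 in both lines, whereas NEFL, LMNB2 and, at the last day, VIM lie on opposite sides.

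Desmin rose in both lines. Des stood at 237, 224, 234 and 239 CPM in the 4 C2C12 libraries of day 0, at 298, 282, 317 and 300.05 CPM at day 1, and at 769, 837, 768 and 798 CPM at day 6. The 3 days did not overlap, and the larger step came after day 1. Des changed by 0.36 on the log2 scale at day 1 (SE 0.05, adjusted p = 3.51e-06) and 1.76 at day 6 (SE 0.05, adjusted p = 2.4e-17), both against day 0. In LHCN-M2, DES stood at 266, 439, 257 and 248.5 CPM at day 0, at 1339, 1175, 1356 and 1348 CPM at day 1, and at 2039, 1805, 1765 and 1889 CPM at day 12. Here most of the rise was in place at day 1, when every library exceeded every day 0 library. DES changed by 2.11 on the log2 scale at day 1 (SE 0.15, adjusted p = 2.1e-08) and 2.63 at day 12 (SE 0.15, adjusted p = 1.44e-09), or 2.36 and 2.87 without replicate 2 of day 0. The rise at day 1 was larger in LHCN-M2 than in C2C12 by 1.83 on the log2 scale (SE 0.16, adjusted p = 6.62e-10), or 2.06 without replicate 2 of LHCN-M2 day 0. At the last day the difference was 1.01 (SE 0.16, adjusted p = 5.29e-06), or 1.25 without that library. The rise from day 1 to the last day was smaller in LHCN-M2, by -0.82 (SE 0.16, adjusted p = 0.00014). The human gene (ENSG00000175084) lies at chr2:219418377-219426739 on the plus strand of GRCh38.

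Syncoilin, which binds desmin and the dystrophin-associated complex, also rose in both lines. Sync stood at 9.68, 9.32, 8.18 and 8.18 CPM in C2C12 at day 0, at 25.4, 22.7, 28.7 and 27.5 CPM at day 1, and at 36.3, 32.4, 34.3 and 35.5 CPM at day 6. In LHCN-M2, SYNC stood at 22.7, 16.0, 22.5 and 23.5 CPM at day 0, at 47.1, 44.2, 54.0 and 51.6 CPM at day 1, and at 55.7, 56.2, 57.3 and 61.2 CPM at day 12. No library of a later day overlapped day 0 in either line. The log2 fold changes against day 0 were 1.56 (SE 0.09, adjusted p = 1.25e-11) and 1.97 (SE 0.09, adjusted p = 7.34e-14) in C2C12, and 1.22 (SE 0.11, adjusted p = 3.73e-07) and 1.44 (SE 0.11, adjusted p = 4.04e-08) in LHCN-M2, where they were 1.12 and 1.34 without replicate 2 of day 0. The difference between the lines at day 1 was -0.27 (SE 0.15, adjusted p = 0.113), and without replicate 2 of LHCN-M2 day 0 it was -0.38 (SE 0.12, adjusted p = 0.00573). At the last day it was -0.38 (SE 0.15, adjusted p = 0.0218), and leaving out replicate 3 or 4 of LHCN-M2 day 0 ended that call (adjusted p = 0.0687 and 0.0828), whereas without replicate 2 it was -0.49 (SE 0.12, adjusted p = 0.000438). SYNC (ENSG00000162520, chr1:32680360-32703596, minus strand) overlaps the opposite-strand gene RBBP4, a histone chaperone, in both species. Without a stated strand setting the reads of the overlap cannot be told apart. Rbbp4 went from 237 ± 15.3 to 263 ± 15.7 CPM in C2C12 at day 6, and RBBP4 from 130.4 ± 6.0003 to 188 ± 9.93 CPM in LHCN-M2 at day 12.

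The promoters of a pair of genes that rose early in C2C12 (Sync, Nes), of Des, which rose later, and of Synm, which fell, are shown so that their letters can be read beside those courses. They run from 250 bases before to 50 after the gene start, 5′ to 3′, from RefSeq on GRCm38.p6, at chr1:75360042-75360341 (plus), chr4:129287371-129287670 (plus), chr3:87970843-87971142 (plus) and chr7:67759693-67759992 (minus). Capitals mark E-boxes (CANNTG, a general form not particular to myogenic factors) and the MEF2-type motif, CTA and TAG with any 4 bases between them.
Des: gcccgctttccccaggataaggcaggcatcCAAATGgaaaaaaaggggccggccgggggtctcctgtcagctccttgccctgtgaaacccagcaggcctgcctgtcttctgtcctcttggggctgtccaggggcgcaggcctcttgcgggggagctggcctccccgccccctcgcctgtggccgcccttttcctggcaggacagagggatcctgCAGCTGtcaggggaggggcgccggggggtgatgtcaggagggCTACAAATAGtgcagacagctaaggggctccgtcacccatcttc
Sync: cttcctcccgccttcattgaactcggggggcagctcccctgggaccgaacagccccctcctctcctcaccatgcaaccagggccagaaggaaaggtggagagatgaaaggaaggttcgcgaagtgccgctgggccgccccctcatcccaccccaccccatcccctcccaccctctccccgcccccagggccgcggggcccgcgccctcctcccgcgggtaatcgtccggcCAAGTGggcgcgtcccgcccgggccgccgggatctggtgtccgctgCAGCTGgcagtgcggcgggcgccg
Nes: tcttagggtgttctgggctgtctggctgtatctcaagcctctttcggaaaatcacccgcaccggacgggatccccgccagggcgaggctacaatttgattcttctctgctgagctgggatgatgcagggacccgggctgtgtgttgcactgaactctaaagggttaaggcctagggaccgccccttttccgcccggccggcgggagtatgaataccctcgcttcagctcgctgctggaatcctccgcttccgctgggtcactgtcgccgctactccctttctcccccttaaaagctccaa
Synm: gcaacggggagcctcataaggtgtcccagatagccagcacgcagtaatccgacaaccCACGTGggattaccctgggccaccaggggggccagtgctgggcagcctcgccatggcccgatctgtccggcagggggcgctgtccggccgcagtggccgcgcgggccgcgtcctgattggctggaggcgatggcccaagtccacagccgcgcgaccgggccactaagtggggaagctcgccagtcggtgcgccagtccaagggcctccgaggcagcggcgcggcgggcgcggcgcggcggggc
The motifs were searched on both strands, and each reads as itself on the other strand. The Des window holds CAAATG at -220, CAGCTG at -36 and a MEF2-type match at 7, the first base of each match counted from a gene start of 1, and the Sync window holds CAAGTG at -20 and CAGCTG at 27. In the Synm window CACGTG lies at -193, and no match was found in the Nes window. Of 32851 mouse promoter windows of the same length, 72.3% hold CANNTG, 16.3% hold CAGCTG, which is also counted among the CANNTG matches, and 3.69% hold the MEF2-type motif. A match is a run of letters and not a measured binding site. Windows were found for 7 of the 10 members. Those of Vim and Lmna, not shown, held no E-box and no MEF2-type match. For Lmnb2, also not shown, 1 window held 4 CANNTG matches. Another held 1, with a MEF2-type match at -144.

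Vimentin moved in opposite directions. Vim stood at 5081, 4513, 4676 and 4941 CPM in C2C12 at day 0, at 4857, 5036, 4593 and 4849 CPM at day 1, and at 7605, 8164, 7698 and 7747 CPM at day 6. Days 0 and 1 overlapped (log2 fold change 0.01, SE 0.04, adjusted p = 0.881), and all day 6 libraries were above them (0.70 against day 0, SE 0.04, adjusted p = 1.16e-11). In LHCN-M2, VIM stood at 3007, 4292, 3046 and 2882 CPM at day 0, at 1809, 1878, 1662 and 1746 CPM at day 1, and at 1153, 909, 894 and 859 CPM at day 12. It fell at each step with no overlap between days. The log2 fold change against day 0 was -0.90 at day 1 (SE 0.12, adjusted p = 2.08e-05) and -1.79 at day 12 (SE 0.12, adjusted p = 9.93e-09), or -0.73 and -1.64 without replicate 2 of day 0. The fold at the last day differed between the lines by -2.35 on the log2 scale (SE 0.14, adjusted p = 1.85e-13), or -2.20 without that library. VIM (ENSG00000026025) lies at chr10:17228259-17237593 on the plus strand. VIM is also abundant in fibroblasts. The 8 fibroblast markers summed, mostly collagen message, went from a range of 14393 to 16820 CPM at day 0 to 10663 to 11138 at day 6 in C2C12, and from 10628 to 11014 at day 0 to 24386 to 25402 CPM at day 12 in LHCN-M2. Single markers went either way. Of 7 tested in C2C12, 2 rose and 3 fell at day 6, when 33.1% of all genes tested rose and 32.5% fell. Of 8 tested in LHCN-M2, 7 rose while VIM fell, and 1 fell, at day 12 (27.1% and 27.5% of all genes). The matrix proteoglycan genes Dcn (9.91 ± 1.54 to 288 ± 15.5 CPM) and Lum (0.0151 ± 0.0301 to 9.22 ± 1.21 CPM) rose with Vim at day 6 of C2C12. THY1, a surface glycoprotein gene, was the 1 that fell with VIM at day 12 of LHCN-M2 (199.5 ± 41.7 to 61.5 ± 1.91 CPM). The part of the fibroblast markers in the VIM result was not tested.

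**Figure D2:**
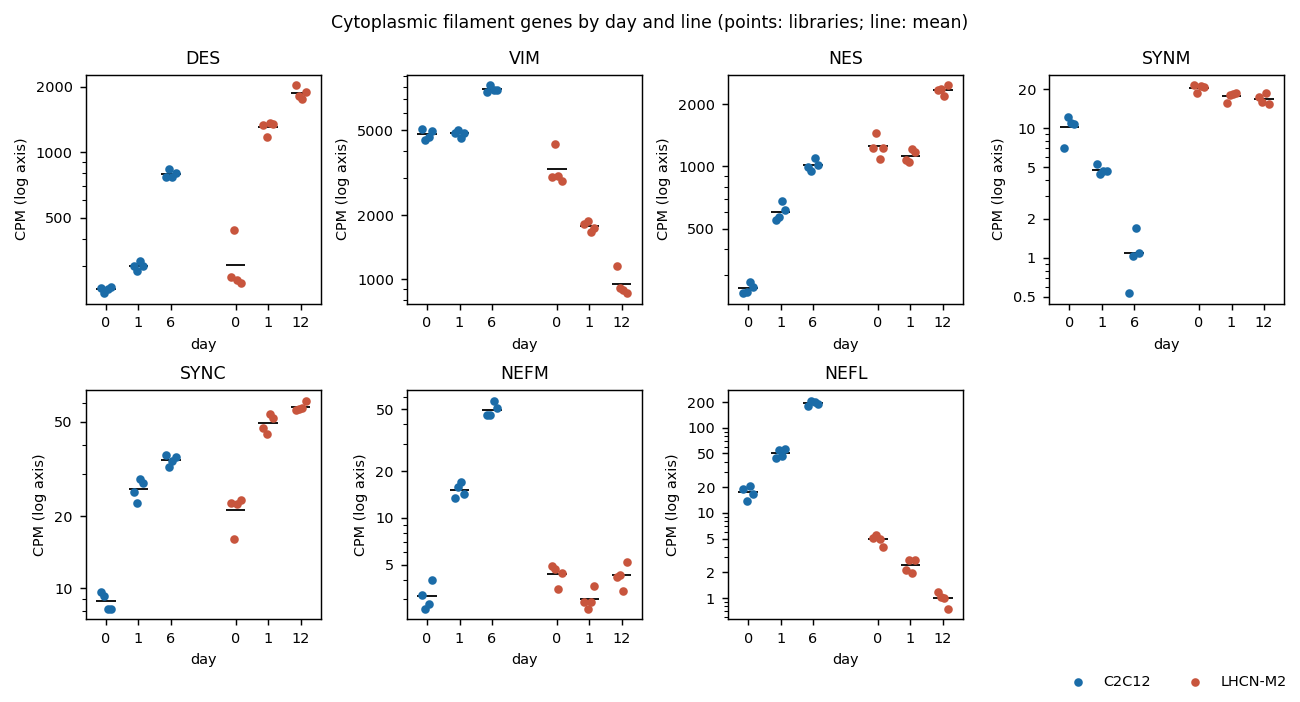
Levels of the 7 cytoplasmic filament genes by day in C2C12 (blue) and LHCN-M2 (red), in CPM on a log axis. Points are libraries and horizontal lines are means of 4. VIM climbs to between 7605 and 8164 CPM in C2C12 at day 6 and drops to between 859 and 1153 CPM in LHCN-M2 at day 12.

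In the summed filament message the share of vimentin fell and that of desmin rose in both lines. The desmin to vimentin ratio changed by 1.06 on the log2 scale between days 0 and 6 of C2C12 and by 4.46 between days 0 and 12 of LHCN-M2, a difference between the lines that was not itself tested. Vimentin held 89.98% ± 0.469 of the summed RPKM of the 7 cytoplasmic genes in C2C12 at day 0, 83.5% ± 1.40 at day 1 and 78.6% ± 0.495 at day 6 (SD, n = 4). Desmin held 5.53% ± 0.145, 6.54% ± 0.453 and 10.1% ± 0.192 on those days. Nestin held 3.58% ± 0.287, 7.73% ± 0.911 and 7.56% ± 0.583, and Nefl 0.464% ± 0.0728, 1.22% ± 0.127 and 2.75% ± 0.118. The fall of the vimentin share in C2C12 was thus not taken up by desmin alone. In LHCN-M2 the share of VIM went from 64.0% ± 1.37 to 31.5% ± 2.47 and 13.3% ± 1.28, and that of DES from 12.1% ± 1.20 to 48.4% ± 1.88 and 54.8% ± 0.584. Per length, DES thus replaced VIM as the largest of the 7 in LHCN-M2 by day 1, and Vim stayed the largest in C2C12 on all 3 days. The order in LHCN-M2 depends on the deposited gene lengths, 2464 bases for DES and 5158 for VIM. Before division by length, VIM was still above DES at day 1 (1774 ± 92.2 against 1304 ± 86.4 CPM). At day 12 NES (2341 ± 113 CPM) was then above DES (1874.5 ± 121 CPM). The desmin to vimentin ratio of RPKM was 0.0615 ± 0.00192, 0.0784 ± 0.00668 and 0.128 ± 0.00188 in C2C12, and 0.189 ± 0.0170, 1.55 ± 0.170 and 4.15 ± 0.368 in LHCN-M2. All 6 differences between days within a line gave the smallest p that an exact 2-sided permutation test of 4 against 4 libraries allows (p = 0.0286, adjusted p = 0.0327 over 24 ratio tests). The summed RPKM of the 7 genes rose from 1125 ± 55.4 to 2093 ± 57.5 in C2C12 by day 6 and went from 999.7 ± 188.2 to 1387 ± 78.4 in LHCN-M2 by day 12. Replicate 2 of LHCN-M2 day 0 held 1281 of summed RPKM, and the other 3 libraries of that day 893 to 923.

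**Figure D3:**
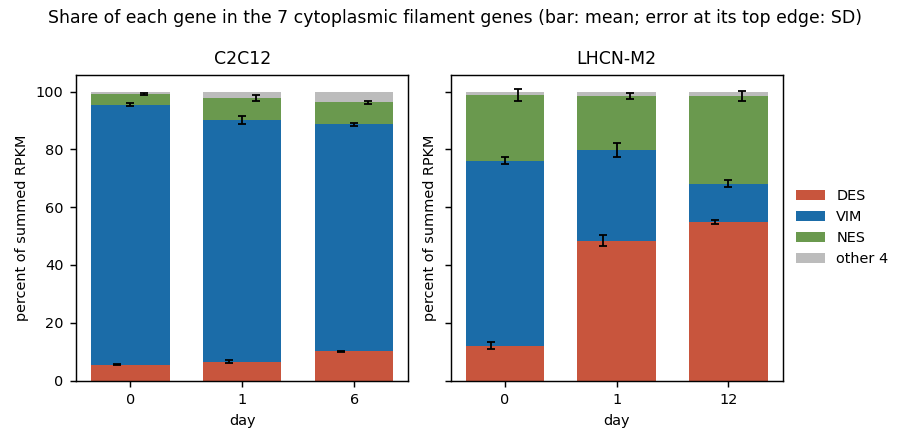
Percent of the summed RPKM of the 7 cytoplasmic filament genes held by DES, VIM, NES and the other 4, by day in each line. Bars are means of 4 libraries, with the SD drawn at the top edge of each named share. The VIM share goes from 64.0% to 13.3% in LHCN-M2 and from 89.98% to 78.6% in C2C12.

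Nestin, a long filament protein of progenitor cells and of the neuromuscular junction that needs a partner such as vimentin or desmin to polymerise, rose early in C2C12 and late in LHCN-M2. Nes stood at 244, 247, 277 and 263 CPM in C2C12 at day 0, at 549, 568, 684 and 615 CPM at day 1, and at 992, 949, 1099 and 1015 CPM at day 6. No days overlapped, and the log2 fold change against day 0 was 1.23 (SE 0.07, adjusted p = 3.56e-12) and 1.97 (SE 0.07, adjusted p = 4.65e-16). In LHCN-M2, NES stood at 1224, 1456, 1090.5 and 1232 CPM at day 0, at 1071, 1053, 1211 and 1177 CPM at day 1, and at 2329, 2363, 2199 and 2473 CPM at day 12. Days 0 and 1 overlapped (log2 fold change -0.15, SE 0.08, adjusted p = 0.164, and -0.05 without replicate 2 of day 0), and day 12 was above both (0.90 against day 0, SE 0.08, adjusted p = 2.87e-07). The lines differed by -1.30 on the log2 scale at day 1 (SE 0.11, adjusted p = 4.46e-10) and by 0.37 in the step from day 1 to the last day (SE 0.11, adjusted p = 0.00675). NES (ENSG00000132688) lies at chr1:156668763-156677397 on the minus strand. Its share of the 7 cytoplasmic genes by RPKM was 3.58% ± 0.287 at day 0 and 7.73% ± 0.911 at day 1 in C2C12, and in LHCN-M2 it was 22.7% ± 1.99 at day 0 and 30.4% ± 1.65 at day 12.

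Synemin, a desmin-binding linker to the membrane cytoskeleton, was the cytoplasmic member that fell in C2C12. Synm stood at 7.07, 12.2, 10.9 and 10.8 CPM at day 0, at 5.28, 4.47, 4.65 and 4.66 CPM at day 1, and at 0.534, 1.03, 1.72 and 1.09 CPM at day 6. The days did not overlap, and the day 6 values rest on 22 to 63 reads per library. The log2 fold change against day 0 was -1.10 (SE 0.21, adjusted p = 0.000183) and -3.23 (SE 0.24, adjusted p = 2.17e-10). In LHCN-M2, SYNM changed little, with 21.6, 18.6, 21.2 and 20.7 CPM at day 0, 15.7, 18.0, 18.5 and 18.9 CPM at day 1, and 17.4, 16.0, 18.8 and 15.4 CPM at day 12. Its log2 fold change was -0.21 at day 1 (SE 0.10, adjusted p = 0.0911), or -0.23 (SE 0.09, adjusted p = 0.0464) without replicate 2 of day 0, and -0.28 at day 12 (SE 0.10, adjusted p = 0.0226). Leaving out replicate 1 of day 0, or replicate 2 or 4 of day 12, ended the call at day 12 (adjusted p = 0.0582, 0.0671 and 0.0774). The difference between the lines at the last day was 3.09 (SE 0.26, adjusted p = 1.88e-10). SYNM (ENSG00000182253) lies at chr15:99098217-99135593 on the plus strand. Mouse Synm shares 29583 bases with the opposite-strand gene Ttc23, measured between gene starts and ends with introns included. The deposited gene length of Synm is 7933 bases. Ttc23 went from 35.6 ± 1.04 CPM at day 0 to 22.4 ± 0.585 at day 1 and 22.0 ± 0.940 at day 6 (log2 fold change -0.69 at day 6, SE 0.07, adjusted p = 9.2e-09). Reads that fall in both genes cannot be told apart without a stated strand setting.

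The neurofilament genes, whose proteins fill the axons of neurons, gave the largest line differences of the 10 genes at the last day. Nefl, the light subunit, stood at 19.0, 13.9, 20.9 and 16.9 CPM in C2C12 at day 0, at 44.1, 55.4, 46.3 and 55.8 CPM at day 1, and at 178.6, 208.6, 200.3 and 192.5 CPM at day 6. Nefm, the medium subunit, stood at 3.18, 2.59, 2.79 and 4.01 CPM at day 0, at 13.5, 15.8, 17.0 and 14.3 CPM at day 1, and at 45.9, 46.1, 56.9 and 50.8 CPM at day 6. Both rose at each step with no overlap between days. At day 6 against day 0 the log2 fold change was 3.46 for Nefl (SE 0.10, adjusted p = 6.07e-17) and 3.98 for Nefm (SE 0.12, adjusted p = 1.12e-16). Per length, Nefl at day 6 (57.7 ± 3.77 RPKM) had rank 5 of the 10 genes, above Lmnb1 (26.7 ± 1.46 RPKM). Mouse Nefl and Nefm share 5233 bases on opposite strands by the starts and ends of the deposited table, introns included. Their reads could not be fully assigned without a strand setting. The part of shared reads in the rise of both was not tested. Nefm was at 0.106 ± 0.0251, 0.177 ± 0.0273 and 0.150 ± 0.0154 of the RPKM of Nefl at days 0, 1 and 6.

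In LHCN-M2 both neurofilament genes were low. NEFL (ENSG00000277586) stood at 5.08, 5.52, 5.01 and 3.93 CPM at day 0, at 2.15, 2.83, 1.97 and 2.83 CPM at day 1, and at 1.19, 1.02, 1.00 and 0.743 CPM at day 12, when 33 to 52 reads were counted per library. It fell at each step without overlap, with a log2 fold change against day 0 of -0.999 at day 1 (SE 0.20, adjusted p = 0.000698) and -2.30 at day 12 (SE 0.21, adjusted p = 2.54e-07). NEFM (ENSG00000104722) stood at 4.92, 4.67, 3.51 and 4.45 CPM at day 0, at 2.88, 2.60, 2.89 and 3.67 CPM at day 1, and at 4.16, 4.27, 3.39 and 5.24 CPM at day 12. Its days overlapped. The log2 fold change was -0.54 at day 1 (SE 0.18, adjusted p = 0.021) and 0.51 from day 1 to day 12 (SE 0.18, adjusted p = 0.0355), and day 12 was at -0.04 against day 0 (SE 0.18, adjusted p = 0.87). Leaving out a single library, replicate 1 of day 0 or replicate 2 or 3 of day 1, ended the call at day 1, with adjusted p-values of 0.0589 to 0.0644. The call from day 1 to day 12 was lost without replicate 1, 2 or 3 of day 1 or replicate 1, 2 or 4 of day 12, with adjusted p-values up to 0.124. The folds of the lines at the last day differed by -5.62 for NEFL (SE 0.21, adjusted p = 2.64e-17), the largest difference among the 10 genes, and by -3.88 for NEFM (SE 0.21, adjusted p = 3.96e-14).

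Other genes known from neurons were read beside the neurofilaments. Of 12 neural and glial markers 4 were tested in C2C12, and 3 rose at day 6 against day 0, when 33.1% of all genes tested rose. They were Tubb3, a neuronal beta-tubulin (17.5 ± 1.48 to 267.5 ± 8.83 CPM), Map2, a microtubule-associated protein (17.95 ± 1.19 to 89.1 ± 3.79 CPM), and Gap43, a growth cone protein (23.5 ± 1.47 to 61.7 ± 2.93 CPM). Stmn2, a tubulin-binding protein of growing axons, stood at 202 ± 17.2 CPM at day 0 and 193.5 ± 10.53 at day 6 (log2 fold change -0.06, SE 0.06, adjusted p = 0.378). The 12 markers summed to between 245 and 286 CPM at day 0, between 320.1 and 349.9 at day 1 and between 601 and 641 at day 6. The neuronal RNA-binding protein genes Elavl4 and Rbfox3 and the glial gene Sox10 had 0 counts in all 12 C2C12 libraries. In LHCN-M2, 6 of the 12 were tested, 2 rose (MAP2 and STMN2) and 2 fell (TUBB3 and SNAP25) at day 12 against day 0, when 27.1% and 27.5% of all genes did. MAP2 went from 0.668 ± 0.149 to 3.86 ± 0.645 CPM, STMN2 from 0 counts in all 4 libraries to 4.75 ± 1.21 CPM, SNAP25 from 0.877 ± 0.373 to 0.0413 ± 0.0512 CPM and TUBB3 from 1.52 ± 0.509 to 0.587 ± 0.210 CPM, and the sum went from a range of 3.77 to 5.17 CPM at day 0 to 9.17 to 12.6 CPM at day 12. The part of these markers in the neurofilament results was not tested.

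By the last day all 3 lamin genes had fallen in LHCN-M2, whereas Lmna and Lmnb2 had risen in C2C12. Lamin A and C, both spliced from LMNA, are the lamins of differentiated cells, and mutations in the gene cause muscular dystrophy. Lmna stood at 631, 578, 612 and 574 CPM in C2C12 at day 0, at 872, 806, 898 and 868 CPM at day 1, and at 770.3, 811, 789 and 789 CPM at day 6. Both later days were above day 0, by 0.52 at day 1 (SE 0.05, adjusted p = 1.18e-08) and by 0.40 at day 6 (SE 0.05, adjusted p = 2.27e-07) on the log2 scale. Day 6 overlapped day 1 (-0.12, SE 0.05, adjusted p = 0.0267), and that call was lost without replicate 1 of day 6 (adjusted p = 0.0768). In LHCN-M2, LMNA stood at 1497, 2474, 1402 and 1471 CPM at day 0, at 1403, 1250.1, 1307 and 1357 CPM at day 1, and at 1003, 841, 838 and 907 CPM at day 12. Days 0 and 1 overlapped, and day 12 was below both.

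In LHCN-M2 at day 1 the log2 fold change of LMNA was -0.36 (SE 0.15, adjusted p = 0.0523). It was -0.11 (SE 0.06, adjusted p = 0.114) without replicate 2 of day 0, the library at 2474 CPM. Leaving out replicate 1, 3 or 4 of day 0 instead put it past the threshold (adjusted p = 0.04, 0.023 and 0.0337), as did DESeq2 (adjusted p = 0.0476). At day 12 the log2 fold change was -0.93 (SE 0.15, adjusted p = 6.8e-05), and -0.69 (SE 0.06, adjusted p = 2.57e-09) without that library. The folds of the lines differed at the last day by -1.19 (SE 0.16, adjusted p = 4.9e-07), or -0.95 without that library. LMNA (ENSG00000160789) lies at chr1:156082573-156140089 on the plus strand.

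Lamin B1, a B-type lamin whose loss is a known mark of senescent cells, had the largest fall of the 10 genes in the human line, and it was in place at day 1. LMNB1 stood at 94.4, 98.5, 94.8 and 95.4 CPM in LHCN-M2 at day 0, at 10.1, 7.83, 6.998 and 8.89 CPM at day 1, and at 11.2, 8.90, 9.42 and 9.77 CPM at day 12. All 8 later libraries were at or below 11.2 CPM, and days 1 and 12 overlapped. The log2 fold change against day 0 was -3.50 at day 1 (SE 0.12, adjusted p = 4.59e-12) and -3.28 at day 12 (SE 0.11, adjusted p = 4.29e-12), and day 12 against day 1 gave 0.22 (SE 0.11, adjusted p = 0.13). In C2C12, Lmnb1 stayed near its starting level, with 86.4, 84.7, 94.1 and 86.5 CPM at day 0, 83.5, 82.6, 91.5 and 92.8 CPM at day 1, and 72.7, 80.5, 82.3 and 80.9 CPM at day 6. Its log2 fold change was -0.01 at day 1 (SE 0.06, adjusted p = 0.949) and -0.15 at day 6 (SE 0.06, adjusted p = 0.0289). Without replicate 3 of day 0 or replicate 1 of day 6 the call at day 6 was lost (adjusted p = 0.085 and 0.124). The folds of the lines differed by -3.42 at day 1 (SE 0.12, adjusted p = 2.41e-17) and by -2.99 at the last day (SE 0.12, adjusted p = 8.57e-17). LMNB1 (ENSG00000113368) lies at chr5:126776623-126837020 on the plus strand.

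Lamin B2 fell in LHCN-M2 and rose in C2C12. LMNB2 stood at 329, 317, 299 and 342 CPM in LHCN-M2 at day 0, at 93.2, 79.4, 88.1 and 89.7 CPM at day 1, and at 67.5, 69.3, 64.6 and 70.8 CPM at day 12. Lmnb2 in C2C12 stood at 51.7, 46.9, 43.6 and 46.1 CPM at day 0, at 60.5, 53.0, 61.6 and 60.4 CPM at day 1, and at 96.0, 96.9, 101.4 and 96.9 CPM at day 6. No days overlapped in either line. The log2 fold change at the last day was -2.24 in LHCN-M2 (SE 0.07, adjusted p = 2.69e-12) and 1.06 in C2C12 (SE 0.06, adjusted p = 5.47e-12), a difference between the lines of -3.15 (SE 0.09, adjusted p = 1.84e-19). LMNB2 (ENSG00000176619, chr19:2427638-2456996, minus strand) shares 257 bases on the same strand with TIMM13, a mitochondrial import gene at 67.9 ± 30.9 CPM at day 0, 48.5 ± 5.10 at day 1 and 68.2 ± 12.7 at day 12 in LHCN-M2.

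**Figure D4:**
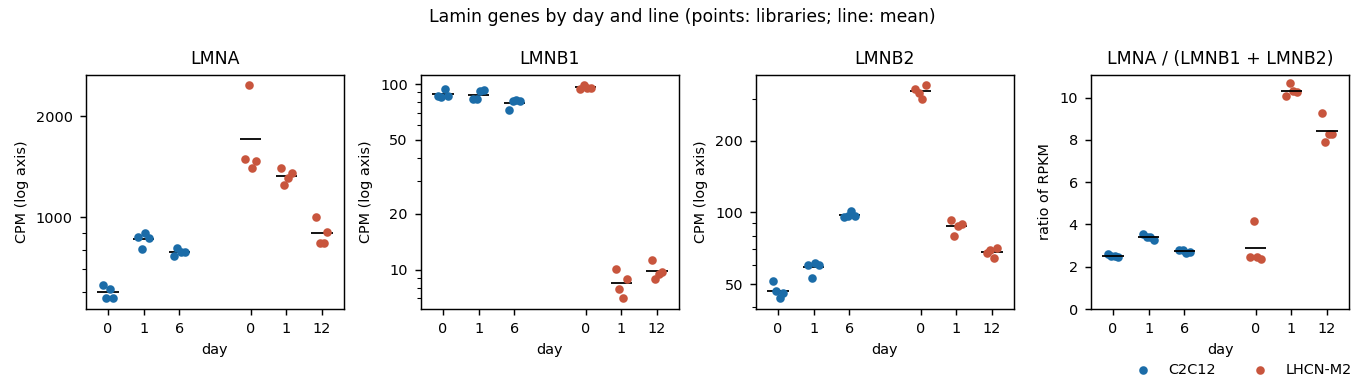
Levels of the 3 lamin genes by day in C2C12 (blue) and LHCN-M2 (red), in CPM on a log axis, and, in the right panel, the ratio of LMNA to the sum of LMNB1 and LMNB2 in RPKM on a linear axis. Points are libraries and horizontal lines are means of 4. LMNB1 drops from a mean of 95.8 to 8.46 CPM between days 0 and 1 of LHCN-M2, and the point at 2474 CPM of LMNA is replicate 2 of day 0.

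Relative to the B-type lamins, LMNA message rose in both lines. Ratios were tested within each line and not between lines. The ratio of LMNA to the summed B-type lamins in RPKM was 2.52 ± 0.0699, 3.41 ± 0.108 and 2.73 ± 0.0839 at days 0, 1 and 6 of C2C12. In LHCN-M2 the day 0 libraries were at 2.48, 4.14, 2.47 and 2.36, and the later days at 10.3 ± 0.251 and 8.43 ± 0.573. The B2 to B1 ratio went from 0.371 ± 0.0385 to 0.856 ± 0.0391 at day 6 of C2C12, and in LHCN-M2 from 2.25 ± 0.138 to 7.03 ± 0.967 at day 1 and 4.67 ± 0.501 at day 12. All of these differences between days reached the smallest p of the exact permutation test (p = 0.0286, adjusted p = 0.0327). The medium to light neurofilament ratio did so at day 12 of LHCN-M2, where it rose from 0.901 ± 0.180 to 4.48 ± 1.70, and at day 1 of C2C12, but not between days 0 and 6 (p = 0.0571) or 1 and 6 (p = 0.171) of C2C12, nor between days 0 and 1 of LHCN-M2 (p = 0.0857) in the exact test.

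Ranked per length, the order of the 10 genes changed with time. At day 0 of C2C12 it was Vim (1013 ± 53.9 RPKM), Lmna (102.6 ± 4.74), Des (62.2 ± 1.80), Nes, Lmnb1, Lmnb2, Nefl, Sync, Synm and Nefm (0.544 ± 0.108), with no overlap between neighbours. By day 6 Des (211.3 ± 8.69 RPKM) and Nes (158.0 ± 9.80) had passed Lmna (135.3 ± 2.86), and Synm (0.138 ± 0.0612) was last. At day 1, Nefl and Lmnb2 overlapped. At day 0 of LHCN-M2 the order was VIM (641 ± 128 RPKM), LMNA (245 ± 73.1), NES (225 ± 27.2), DES (122.8 ± 37.0), LMNB2, LMNB1, SYNC, SYNM, NEFL and NEFM, where LMNA overlapped NES and NEFL overlapped NEFM. Without replicate 2, NES (213 ± 14.3 RPKM) stood above LMNA (208.5 ± 7.01), still overlapping (n = 3). At day 1, DES (529 ± 35.1 RPKM) led, and NES with LMNA, LMNB2 with SYNC, LMNB1 with SYNM and NEFM with NEFL overlapped. At day 12 it was DES (760.8 ± 49.2 RPKM), NES (421 ± 20.3), VIM (184.9 ± 26.1) and LMNA (128.5 ± 11.04), and no neighbours overlapped. LMNB1 went from 26.4 ± 0.520 to 2.71 ± 0.275 RPKM between days 0 and 12. Because each line has its own genome and gene models, levels are not set against each other between lines.

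The folds of most members differed between the lines. At day 1, 9 of 10 members differed between the lines (59.3% of 10952 matched genes tested), 2 with a higher fold in LHCN-M2 (29.1%) and 7 with a lower one (30.3%). At the last day all 10 differed (70.5%), 2 higher (36%), DES and SYNM, and 8 lower (34.6%). From day 1 to the last day 8 of 10 differed (56.1%), 3 higher (30.1%), NES, SYNM and LMNB1, and 5 lower (26%). For LMNA this last difference was -0.37 (SE 0.16, adjusted p = 0.0501). The median absolute difference at the last day was 2.67 on the log2 scale for the members and 0.71 for all matched genes, which describes members chosen with earlier results known and is no test. Each comparison uses the same day 0 or day 1 libraries as another, so the comparisons of a line are not independent of each other.

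The proliferation genes, read beside the B-type lamins, fell in the human line and mostly rose in the mouse line by the last day. All 12 fell in LHCN-M2 at day 1 and at day 12 against day 0, with a median log2 fold change of -3.37 and -2.52 (0.03 and -0.01 for all genes tested), and the summed level went from between 1625 and 1897 CPM at day 0 to between 206 and 244 at day 1 and between 304 and 359 at day 12. RRM2, a subunit of ribonucleotide reductase, went from 106.4 ± 5.70 to 9.53 ± 3.22 CPM at day 12, and the mitotic kinase genes AURKB and PLK1 changed by -3.56 and -3.08 on the log2 scale. From day 1 to day 12, 7 of the 12 rose and 1 fell (median 0.72, against -0.00 for all genes tested), while LMNB2 fell further (-0.36, SE 0.07, adjusted p = 0.000891) and LMNB1 was not called. In C2C12, 4 rose and 8 fell at day 1 (median -0.29), and 8 rose and 1 fell at day 6 (median 0.40, with 33.1% of all genes called higher and 32.5% lower), Aurkb being the 1 that fell (-0.58). Rrm2 rose from 98.9 ± 6.04 to 384 ± 3.79 CPM, Pcna, the DNA polymerase clamp, from 53.3 ± 4.93 to 145.0 ± 7.03 CPM, and Mcm5, a helicase subunit, by 0.85 on the log2 scale. In LHCN-M2, PCNA and MCM5 changed by -1.69 and -3.08. Across all genes tested in LHCN-M2, 23.5% fell at day 1 and 27.5% at day 12, and 20.9% rose and 18.8% fell between them. At day 1 of C2C12 the shares were 25.9% higher and 24.4% lower. The part of cell cycle genes in the lamin results was not tested.

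Partners of the lamina in the nuclear envelope went both ways in each line. Of 16 such genes, 7 rose and 3 fell in C2C12 at day 6 (33.1% and 32.5% of all genes tested). Their median log2 fold change was 0.10, against -0.03 for all genes tested. At day 12 of LHCN-M2, 5 rose and 5 fell (27.1% and 27.5% of all genes tested), with a median of -0.02 against -0.01. TMEM38A, a muscle membrane channel of the sarcoplasmic reticulum and nuclear envelope, rose in both, from 9.73 ± 1.19 to 55.4 ± 1.64 CPM in C2C12 and from 1.36 ± 0.241 to 30.0 ± 1.96 CPM in LHCN-M2. The lamin B receptor gene LBR and the lamin-binding protein gene TMPO fell in LHCN-M2, LBR from 45.9 ± 5.51 to 16.1 ± 1.92 CPM and TMPO from 130.8 ± 13.2 to 34.7 ± 1.65 CPM, and rose in C2C12 by 0.24 and 0.54 on the log2 scale. Tor1aip1, which binds lamins and torsin, and Wfs1 rose in C2C12 (log2 fold change 1.01 and 0.75). At day 1, 3 rose and 4 fell in C2C12 (25.9% and 24.4% of all genes) and 4 rose and 4 fell in LHCN-M2 (23.4% and 23.5%).

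The enzymes that farnesylate, cut and methylate prelamin A and the B-type lamins were tested as a list of 5. Of these, 3 rose and none fell at day 6 of C2C12 (median log2 fold change 0.43, against -0.03 for all genes tested, of which 33.1% rose and 32.5% fell): Icmt, the methyltransferase (67.3 ± 3.397 to 96.0 ± 4.89 CPM), Zmpste24, the prelamin A protease (120.6 ± 1.42 to 162.8 ± 4.63 CPM), and Fnta, a farnesyltransferase subunit (0.43 on the log2 scale). At day 12 of LHCN-M2 none rose and 1 fell (median -0.11, against -0.01, with 27.1% of all genes higher and 27.5% lower), RCE1, a protease of farnesylated proteins, from 12.6 ± 2.75 to 7.996 ± 1.11 CPM. At day 1, 3 rose and 2 fell in C2C12 (25.9% and 24.4% of all genes), and 2 fell and none rose in LHCN-M2 (23.5% and 23.4%).

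Among linkers, chaperones and turnover factors of filaments more rose than fell at the last day against day 0. Of 15 tested in C2C12 8 rose and 3 fell at day 6 (median log2 fold change 0.47, against -0.03 for all genes tested, of which 33.1% rose and 32.5% fell), and of 16 tested in LHCN-M2 11 rose and 1 fell at day 12 (median 0.98, against -0.01, with 27.1% higher and 27.5% lower). From day 1 to day 6 of C2C12, 6 rose and 6 fell (median -0.13, against 0.02), beside 32.8% and 28.6% of all genes. From day 1 to day 12 of LHCN-M2 8 rose and none fell (median 0.49, against -0.00), beside 20.9% and 18.8%. At day 1, 9 of 15 rose and 1 fell in C2C12 (25.9% and 24.4% of all genes). In LHCN-M2 6 of 16 rose and 3 fell at day 1 (23.4% and 23.5%). HSPB8, a small heat shock protein of filament quality control, rose from 42.7 ± 4.68 to 92.7 ± 9.58 CPM in C2C12 and from 20.1 ± 2.17 to 117.1 ± 7.63 CPM in LHCN-M2. CRYAB, the desmin-binding chaperone mutated in a desmin-related myopathy, rose from 72.4 ± 6.29 to 307.4 ± 28.1 CPM in C2C12 and from 102.1 ± 19.999 to 201.9 ± 13.7 CPM in LHCN-M2. DSP, the desmosome protein that anchors filaments at junctions, rose in LHCN-M2 from 143.9 ± 40.6 to 593 ± 75.6 CPM and was below the filter in C2C12. JUP, another junction protein, rose in both lines (log2 fold change 1.39 and 2.95), reaching 49.6 ± 2.51 CPM in C2C12 and 1.30 ± 0.358 CPM in LHCN-M2. DTNA, a dystrophin-associated protein that binds syncoilin and synemin, rose from 8.39 ± 1.26 to 50.98 ± 5.86 CPM in LHCN-M2 and by 0.69 on the log2 scale in C2C12, and Hspb1 rose by 1.74 in C2C12.

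Of 14 other intermediate filament genes, 6 were tested in C2C12 and 7 in LHCN-M2. In C2C12 3 rose and 1 fell at day 1, and 4 rose and none fell at day 6 (median log2 fold change 1.14 over the 6, against -0.03 for all genes tested, of which 33.1% rose and 32.5% fell). In LHCN-M2 3 rose and 2 fell at both days against day 0 (median 0.03 at day 1 and 0.15 at day 12, against 0.03 and -0.01 for all genes tested, of which 27.1% rose and 27.5% fell at day 12). At day 1, 25.9% of all genes tested rose and 24.4% fell in C2C12, and 23.4% and 23.5% in LHCN-M2. KRT80, an epithelial keratin, rose in both lines, from 6.10 ± 1.36 to 36.8 ± 3.27 CPM in C2C12 and from 8.70 ± 1.60 to 37.5 ± 3.81 CPM in LHCN-M2. Krt19 rose in C2C12 from 11.1 ± 3.12 to 43.7 ± 5.53 CPM, and Krt14 stood at 13.3 ± 2.43 CPM at day 0, 30.8 ± 1.26 at day 1 and 16.5 ± 2.14 at day 6. In LHCN-M2, KRT17 fell by 1.16 and BFSP1, a lens filament gene, rose by 0.96 on the log2 scale. The summed level of the 14 went from between 25.1 and 38.2 to between 93.7 and 115.3 CPM in C2C12, and from between 43.2 and 56.9 to between 66.5 and 71.9 CPM in LHCN-M2.

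Markers of other cell types were read in the same libraries. Of the 6 smooth muscle markers, 5 were tested in each line, where 0 rose and 5 fell at day 6 of C2C12 and 3 rose and 1 fell at day 12 of LHCN-M2. Fibroblast markers gave 2 higher and 3 lower of 7 tested in C2C12 at day 6, and 7 higher and 1 lower of 8 in LHCN-M2 at day 12. Over all genes tested, 33.1% were higher and 32.5% lower in the first comparison, and 27.1% and 27.5% in the second. The 4 immune and endothelial markers summed to at most 3.97 CPM in C2C12 and 1.28 CPM in LHCN-M2, with CDH5 at 0 in every LHCN-M2 library, and none of those tested was called against day 0.

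For DES, VIM and LMNB1 the genes with the most similar course were sought among 8106 matched symbols, by the Pearson correlation of log2 CPM over the 12 libraries of each line, ranked by the lower of the 2 values. The libraries share the 3 days, so the values describe shape and have no p. The DES course was most like that of LINCMD1, a muscle long noncoding RNA (lower r = 0.990), TNNT2, cardiac troponin T (0.988), and CHRND, an acetylcholine receptor subunit (0.987). TNNT2 stood at 15.5 ± 1.14, 36.1 ± 5.80 and 393 ± 19.8 CPM over the days of C2C12 and at 11.9 ± 3.87, 874 ± 79.8 and 1495 ± 76.9 CPM in LHCN-M2. The VIM course was nearest to H3F3B, a replacement histone gene (0.985), UTP18, a ribosome biogenesis factor (0.983), and TRIM55, a sarcomere-associated ubiquitin ligase (0.981). H3F3B stood at 637 ± 28.4, 650.4 ± 20.1 and 1034 ± 29.8 CPM in C2C12 and at 456 ± 62.2, 327 ± 15.1 and 189.0 ± 15.7 CPM in LHCN-M2, higher at the last day in C2C12 and lower in LHCN-M2, as VIM was. For LMNB1, HNRNPUL2, an RNA-binding protein gene (0.898), and SF3B2, a splicing factor gene (0.856), are given, a looser likeness than for DES and VIM. Both fell far less than LMNB1 in LHCN-M2. Over its days HNRNPUL2 stood at 53.7 ± 5.16, 37.9 ± 1.53 and 33.2 ± 2.13 CPM, and SF3B2 at 238 ± 24.6, 182 ± 5.25 and 152 ± 9.36 CPM. LMNB1 stood at 95.8 ± 1.89, 8.46 ± 1.34 and 9.83 ± 1.00 CPM.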

How the data were processed

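Polyadenylated RNA of 24 libraries was counted by the authors, and the deposited tables hold raw read counts per gene, 1 column per library, with the gene length in bases and no normalization. The submitters' processing notes name the tools fastp, featureCounts (2.0.6), HISAT2 (2.2.1) and StringTie (2.2.3). Which annotation release, strand option and read filters were used is given by no source used here. Human positions come from the deposited table (GRCh38) and mouse positions from RefSeq windows (GRCm38.p6).

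From the counts, each line was fitted separately in edgeR 4.0.16 under R 4.3.3, with TMM factors and the quasi-likelihood test on its 12 libraries. The filterByExpr step kept 17065 genes in C2C12 and 18214 in LHCN-M2, all 10 members among them. Benjamini-Hochberg adjustment ran over every gene tested, at a threshold of 0.05. Differences between the lines were interactions in a fit of all 24 libraries, on 10952 symbols of 16608 that occur once in each table and passed the filter in each line. Values after ± are SDs over n = 4 libraries unless SE is written. Ratios of RPKM were tested on the log2 scale with exact permutation tests. The fits were also run on simulated counts, with an outcome that is not reported here and not used as backing for any call.

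The members and the lists were chosen with earlier results of these data known. Genes named are the 10 members, list genes called with at least 2-fold change at the last day of both lines, or the 3 largest changes of a list in a line with a mean of at least 5 CPM, and the 3 genes most like DES, VIM and LMNB1 with at least 10 CPM in both lines. For LMNB1, 1 of these is not reported here. Neural markers, Myog, MYF5 and, as fibroblast markers that moved with VIM, Dcn, Lum and THY1 are named beside results they bear on. Alternatives were RLE and upper-quartile factors, other filters, DESeq2 1.42.0, a replicate block, fits of the compared groups alone, and leaving out each library.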

Additional observations from a re-analysis of the deposited data

Results flagged for a closer look

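In 8 of 60 groups of 4 libraries a member's highest or lowest library lay further from the rest than Dixon's 95% criterion for 4 values allows, a criterion that chance passes in about 1 in 20 groups. Of these, 4 were the day 0 replicate 2 library of LHCN-M2: DES at 438.7 CPM (the others 248.5 to 266), VIM at 4292 (2882 to 3046), LMNA at 2474 (1402 to 1497) and SYNC at 16.0 (22.5 to 23.5). The other 4 were DES in replicate 2 of LHCN-M2 day 1 at 1175 CPM (1339 to 1356), VIM in replicate 1 of LHCN-M2 day 12 at 1153 CPM (859 to 909), Lmnb2 in replicate 2 of C2C12 day 1 at 53.0 CPM (60.4 to 61.6) and Lmnb2 in replicate 3 of C2C12 day 6 at 101.4 CPM (96.0 to 96.9).

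The fold changes of the lines differed past the threshold (edgeR interaction, LHCN-M2 minus C2C12, log2 scale) in 27 of 30 tests of members, beside 59.3%, 70.5% and 56.1% of all matched genes in the comparisons at day 1, at the last day and from day 1 to the last day. At day 1 against day 0 the differences were 1.83 for DES, 0.97 for SYNM, -0.83 for VIM, -1.30 for NES, -2.73 for NEFM, -2.44 for NEFL, -0.81 for LMNA, -3.42 for LMNB1 and -2.13 for LMNB2. At the last day against day 0 they were 1.01 for DES, 3.09 for SYNM, -2.35 for VIM, -0.93 for NES, -0.38 for SYNC, -3.88 for NEFM, -5.62 for NEFL, -1.19 for LMNA, -2.99 for LMNB1 and -3.15 for LMNB2. From day 1 to the last day they were -0.82 for DES, -1.52 for VIM, 0.37 for NES, 2.13 for SYNM, -1.14 for NEFM, -3.19 for NEFL, 0.44 for LMNB1 and -1.03 for LMNB2.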

How the results depend on the processing

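Apart from leaving out libraries, 613 member fold changes kept direction and side of the threshold, 5 reversed, 4 lost a call and 8 gained one, and all 189 counts of calls stayed within 1.5 times the reported ones. With libraries left out, 923 fold changes and 285 counts did so, 11 fold changes reversed, 18 lost a call and 8 gained one. The 3 counts that moved were C2C12 members called lower: 1 to 2 at day 6 against day 0 and 1 to 3 at day 6 against day 1, because the small falls of Lmnb1 and Lmna were lost without replicate 1 of day 6 (Lmnb1 against day 0 also without replicate 3 of day 0). The reversals concerned uncalled values near 0. Lmnb1 at day 1 of C2C12 (-0.01) was 0.00736 with RLE factors, 0.00784 with no filter, 0.0199 with at least 1 CPM, 0.00805 with DESeq2 and 0.00317 to 0.0663 with a library left out. Vim at day 1 of C2C12 was -0.0236 with upper-quartile factors, and NEFM at day 12 against day 0 of LHCN-M2 ran from -0.153 to 0.0575 with a library left out. The causes were not tested.

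With no filter, NEFM at day 1 and from day 1 to 12 and SYNM at day 12 of LHCN-M2 were no longer called (adjusted p = 0.0587, 0.09 and 0.0804). LMNA at day 1 of LHCN-M2 (adjusted p = 0.0523) was called with no filter (0.0165) and with DESeq2 (0.0476). SYNC from day 1 to 12 was called when those groups were fitted alone (0.0143), and SYNM at day 12 was not (0.0575). The LMNA line difference from day 1 to the last day (0.0501) was called in 5 other settings and without replicate 2 of LHCN-M2 day 1 or replicate 1 of day 12. Same-numbered libraries of different days did not deviate together (median correlation 0.00128 in C2C12 and 0.0293 in LHCN-M2). With the replicate block, 8381 genes were called at day 1 of C2C12, against 8582 without it, and no member call changed. Depth limits NEFL at day 12 of LHCN-M2 and Synm at day 6 of C2C12.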

Other observations

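A pair of genes outside the rule for named genes is given here, chosen after their values were seen. NEFH, the heavy neurofilament subunit, stood at 24.4 ± 2.202 CPM at day 0 of LHCN-M2, at 24.9 ± 0.609 at day 1 and at 15.3 ± 2.46 at day 12 (log2 fold change -0.67 against day 0, SE 0.11, adjusted p = 9.77e-05). In C2C12, Nefh stood at 0.175 ± 0.174 CPM at day 0 and 0.115 ± 0.0831 at day 6. TTC23, whose mouse copy overlaps Synm, rose in LHCN-M2 by 0.49 at day 12 (SE 0.08, adjusted p = 7.65e-05) and fell in C2C12 by 0.69 at day 6 (SE 0.07, adjusted p = 9.2e-09) on the log2 scale.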
